A study of Arvicanthis niloticus with 7 samples.

Results

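The solute carrier (SLC) genes encode the membrane proteins that move sugars, amino acids, ions, metals, drugs and bile acids into and out of cells. Their probes were examined on arrays, labelled liver, of Nile rats (NRs) fed palm fruit juice (PFJ) or a control diet. The 98 member probes, of 81 gene symbols, were chosen by the symbol of the platform annotation and by detection, that is, a detection p under 0.01 on at least 2 of 7 arrays. Mitochondrial carriers of the Slc25 family were left out, as were *Slc12a1*, *Slc12a3* and *Slc34a1*, which served as kidney markers. Before the detection rule the array held 416 such probes of 290 symbols. Of these, 308 were detected on no array, 10 on 1 array and were left out, and 27 on exactly 2 arrays and were kept.

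Male NRs, African grass rats that become diabetic on carbohydrate-rich diets, were 3 weeks old at the start and ate for 4 weeks a diet in which carbohydrate, fat and protein gave 70%, 10% and 20% of the energy (16.7 kJ/g). The control group (4 arrays) ate this diet alone, and the PFJ group (3 arrays) ate it with juice added to 5.4 g of gallic acid equivalents per kg. Per the methods of the study, RNA was taken from frozen livers and chosen within each group for integrity. It was hybridised to a BeadChip made for the mouse, on which NR transcripts with mismatches to a probe may give little signal. The animal behind each array is not named, so that the p-values reflect only how these samples vary, which may be technical, and the number of arrays limits the precision.

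Carriers are driven by ion gradients, exchange one solute for another or let a solute pass down its own gradient, and each tissue has its own set on its membranes. In textbook liver, hepatocytes take up glucose, glutamine, bile acids and organic ions from the blood and export manganese into bile. In textbook kidney, the proximal tubule reabsorbs cystine, urate, inositol and phosphate from the filtrate. Probe values are given below as log2 values after background correction and quantile normalisation. A probe that was not detected on an array has an upper bound there, set by the lowest detected value of that array (6.22 to 6.52).

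Control replicates 3 and 4 stood apart from the other 5 arrays. Over the 5763 probes tested, they correlated at 0.984 with each other and at 0.72 to 0.739 with the others, which correlated at 0.959 to 0.981 among themselves. These correlations are across probes, which are not independent. Although all 7 arrays are labelled liver, 9 of 13 detected hepatocyte marker probes lay lower on these 2 arrays than on every other one, also with undetected values raised to the bound. The log2 of the summed signal of all 13 was 12.32 and 12.81 against 18.19 to 18.35. All 10 detected probes of the kidney tubule list lay higher, with sums of 17.51 and 17.76 against 11.88 to 12.33. Only *Miox* (15.99 and 15.95 against 11.35 to 11.94) and *Slc12a3* (11.34 and 11.04 against 9.15 to 9.84) were detected on all 7 arrays. The rest had passed the detection rule through control replicates 3 and 4 alone, so that the rule itself fixed their direction. Among the latter, *Slc34a1*, the phosphate carrier of the proximal tubule, was at 12.63 and 12.50 on these 2 arrays and at no more than 5.57 elsewhere. The probes of the hepatocyte markers *Alb*, *Apoh*, *Fgb*, *Serpina1c* and *Tat* and of the kidney markers *Aqp2*, *Atp6v1b1*, *Calb1*, *Kap*, *Kl*, *Lrp2* and *Pax2* did not pass the detection rule. The single detected probes for podocytes (*Podxl*) and bile duct (*Krt7*) were higher on both arrays and that for erythroid cells (*Alas2*) was lower, while the *Kdr* probe for endothelium lay within the range of the others. The *Krt7* probe, too, had passed the detection rule through these 2 arrays alone. The markers of Kupffer cells, stellate cells, adipocytes, muscle and exocrine pancreas were not detected. The part of these markers in the carrier values was not tested. In such bulk RNA, fewer cells of a type and less RNA per cell cannot be told apart. Every comparison with the PFJ group is therefore given with and without these 2 arrays.

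Across the 98 carrier probes, both control replicates 3 and 4 lay above the other 5 arrays for 43 probes and below them for 34, leaving 21 within their range. Of all probes tested, 30.4% lay above and 28.0% below. By gene, 35 symbols lay above, 27 below and 18 within, and only *Slc11a1* had probes that disagreed among the 15 genes with more than 1 probe. The detection rule itself fixed part of this count, since 23 members were detected on control replicates 3 and 4 and on no other array (7.88% of all probes tested) and all 23 lay above. Another 9 members were detected on the 5 other arrays and on neither of these 2 (4.48%). Of the 38 members detected on all 7 arrays, 15 lay above and 13 below, or 39.5% and 34.2%, beside 28.5% and 28.8% of the 3754 probes detected on all 7. With undetected values raised to the lowest detected value of the array, all 43 stayed above and 29 of the 34 stayed below. For the 23 detected on control replicates 3 and 4 alone this was nearly fixed in advance. A detected value is at or above the lowest of its own array, and these lowest values are close together (6.22 to 6.52).

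**Figure D1:**
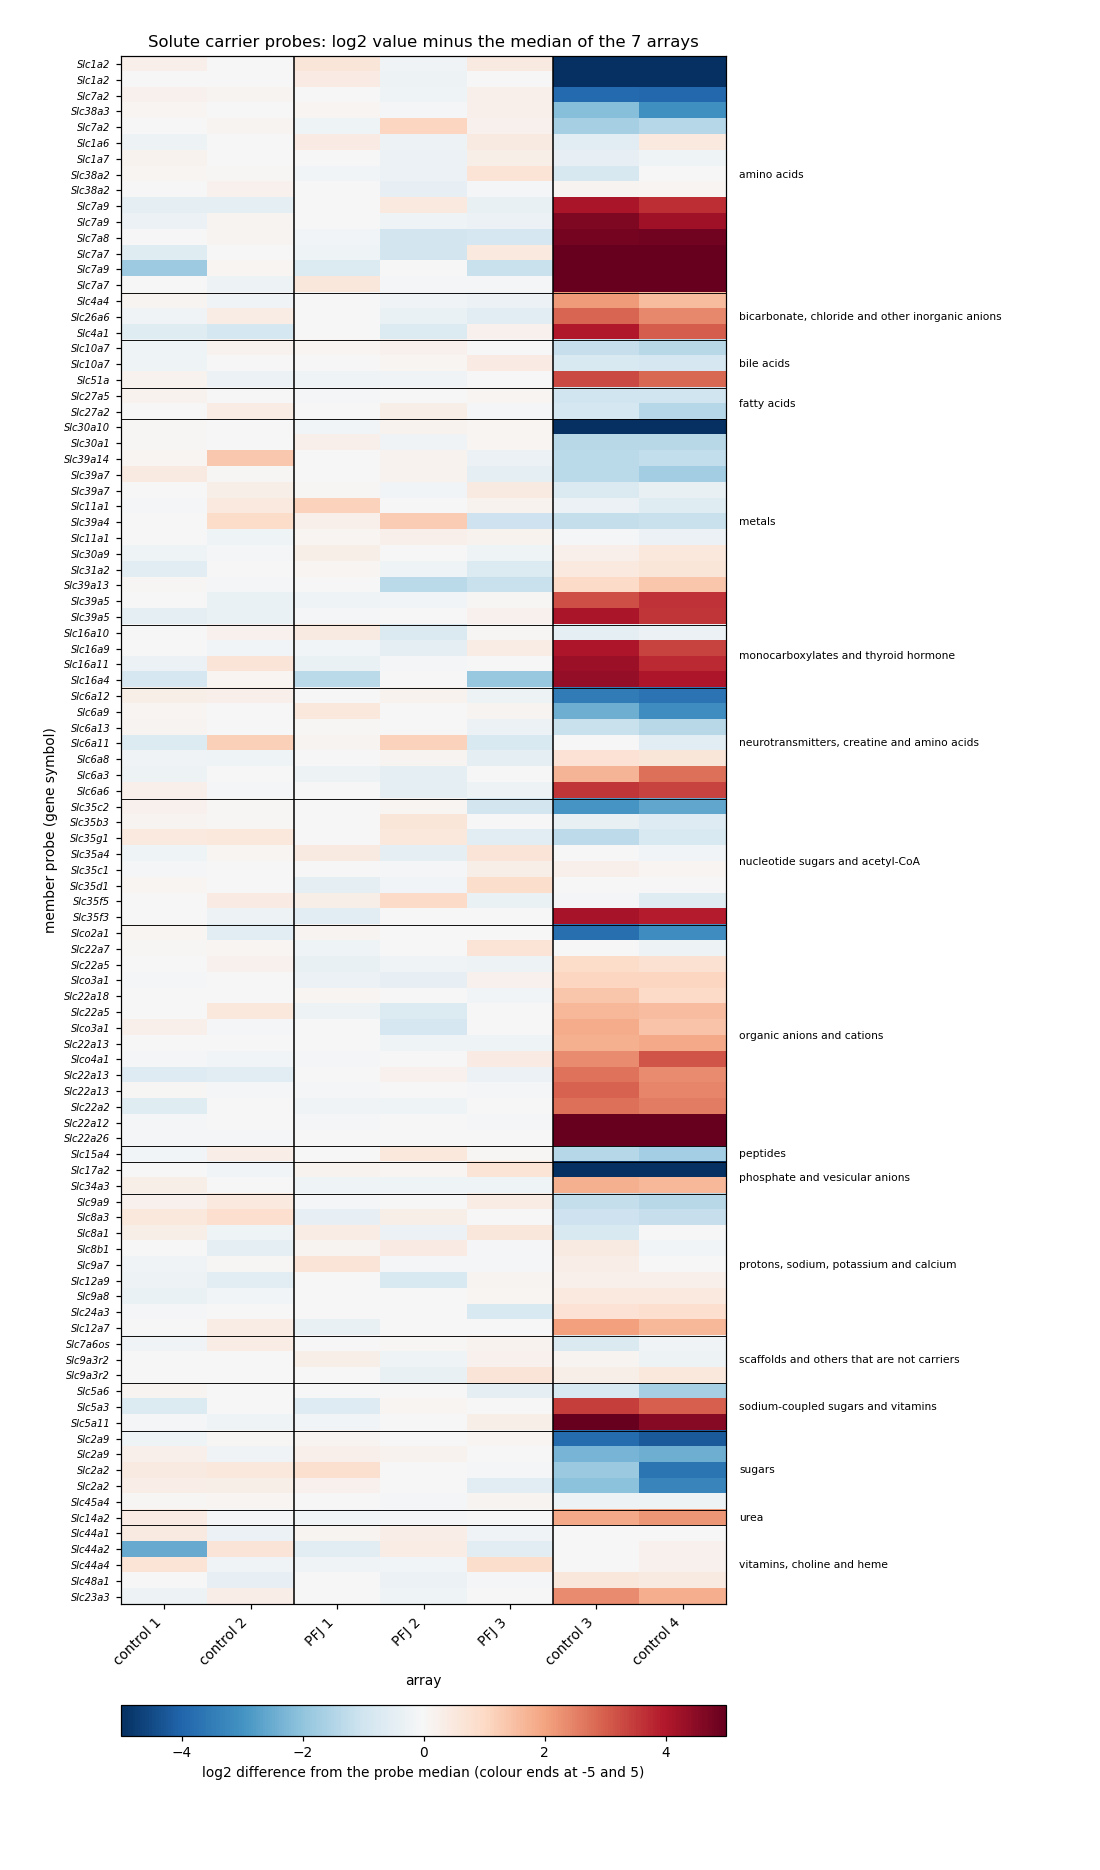
The 98 carrier probes (rows, by substrate group) on the 7 arrays (columns), coloured by the log2 value minus the median of the probe over the arrays (red above, blue below, colour ending at 5 log2 units). The columns of control replicates 1 and 2 and of the PFJ group are pale, while those of control replicates 3 and 4 are red for 43 probes that lie above all others and blue for 34 that lie below.

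Carriers of amino acids formed the largest group, with 15 detected probes of 9 genes, of which 6 lay above, 5 below and 4 within on control replicates 3 and 4. *Slc7a7*, the light chain of the exchanger that releases cationic amino acids across the basolateral membrane, had values of 7.37, 7.10, 13.29 and 13.75 on control replicates 1 to 4 and of 7.93, 7.26 and 7.30 in the PFJ group. Its second probe read 7.41, 8.03, 13.54 and 13.71 in the controls and 7.83, 7.13 and 8.52 with PFJ. Both probes were detected on all 7 arrays, and the nearest arrays on either side were 41.1-fold and 32.4-fold apart, whereas the PFJ values overlapped those of control replicates 1 and 2. *Slc7a9*, which takes up cystine and cationic amino acids at the brush border and is mutated in cystinuria, read 5.06, 6.96, 11.99 and 12.06 in the controls and 6.20, 6.87 and 5.77 with PFJ. Its other 2 probes were detected on control replicates 3 and 4 alone, at 9.03 to 9.71. *Slc7a8*, the basolateral exchanger of large neutral amino acids, had the same pattern (10.78 and 10.80 against at most 6.11) and was picked for mention after its values were seen.

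The amino acid carriers that lay lower were those of glutamate, arginine and glutamine. *Slc1a2*, a sodium-coupled glutamate carrier, read 12.82, 12.58, 5.28 and 5.36 on control replicates 1 to 4 and 13.17, 12.41 and 13.01 with PFJ. Its second probe read 11.65, 11.67, 4.94 and 4.93 in the controls and 12.06, 11.38 and 11.65 with PFJ. Neither probe was detected on control replicates 3 and 4, which were at least 65.4-fold and 32.0-fold below the nearest other array. *Slc7a2*, a carrier of arginine and other cationic amino acids, read 9.23, 9.15, 5.15 and 5.11 in the controls and 8.80 to 9.26 with PFJ, at least 5.36-fold apart. Its other probe (6.58, 6.72, 4.93 and 5.14 in the controls, and 6.36 to 7.64 with PFJ) was too near background for a bound. *Slc38a3*, a glutamine carrier of hepatocytes and kidney, was picked after its values were seen and read 10.23, 10.13, 8.01 and 7.08 in the controls and 10.08 to 10.37 with PFJ. *Slc38a2*, which carries small neutral amino acids, did not separate the arrays by this split (10.59, 10.79, 10.72 and 10.70 in the controls, and 10.58, 10.17 and 10.50 with PFJ).

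The related Slc6 family couples sodium and chloride to the uptake of neurotransmitters, osmolytes and creatine, and 7 of its probes were detected, 3 above, 3 below and 1 within. *Slc6a6*, the taurine carrier, read 10.78, 10.47, 14.08 and 13.90 in the controls and 10.51, 10.07 and 10.25 with PFJ, with 8.72-fold between the nearest arrays. *Slc6a8*, the creatine carrier, was closer together, at 10.80 and 10.65 on control replicates 3 and 4 and 9.56 to 10.20 elsewhere. In the opposite direction, *Slc6a12*, which carries betaine and GABA, read 10.28, 10.22, 6.49 and 6.30 in the controls and 9.98, 10.14 and 9.73 with PFJ. *Slc6a9*, a glycine carrier, read 9.12 and 8.43 on control replicates 3 and 4 and 11.54 to 12.07 elsewhere, and *Slc6a13*, a carrier of GABA and taurine, 8.77 and 8.51 against 9.59 to 10.03. *Slc6a3*, the dopamine carrier of neurons, was detected on control replicates 3 and 4 alone, at 6.88 and 7.94, at least 1.28-fold above the bound elsewhere.

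All 4 detected probes of the facilitative sugar carriers *Slc2a2* and *Slc2a9* lay lower on control replicates 3 and 4, and the sodium-coupled carriers divided. *Slc45a4*, also grouped with the sugars, lay 0.16 log2 units below, but within the range with equal array medians and with the deposited normalised values. *Slc2a2* encodes GLUT2, the glucose carrier of the hepatocyte surface, of the basolateral side of the proximal tubule and of the islet cell. One of its probes read 9.71, 9.66, 7.34 and 6.09 in the controls and 9.61, 9.38 and 8.82 with PFJ, and the other 9.36, 9.42, 7.07 and 5.24 and then 9.70, 8.91 and 8.80. The PFJ values of the first probe all lay below control replicates 1 and 2, and those of the second overlapped them. *Slc2a9*, a urate carrier, read 9.20, 9.45, 5.54 and 5.19 in the controls and 9.53, 9.40 and 9.49 with PFJ, and was not detected on control replicates 3 and 4, at least 7.09-fold below the others. For its other probe that bound was 1.93-fold. *Slc5a3* and *Slc5a11*, which bring in myo-inositol with sodium, lay above. *Slc5a3* read 8.11, 8.79, 12.23 and 11.77 in the controls and 8.13, 8.89 and 8.79 with PFJ, and *Slc5a11*, detected on control replicates 3 and 4 alone at 10.36 and 9.40, was at least 7.33-fold above the rest. *Slc5a6*, the carrier of biotin and pantothenate, differed little (6.28 and 5.39 against 6.59 to 7.18).

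**Figure D2:**
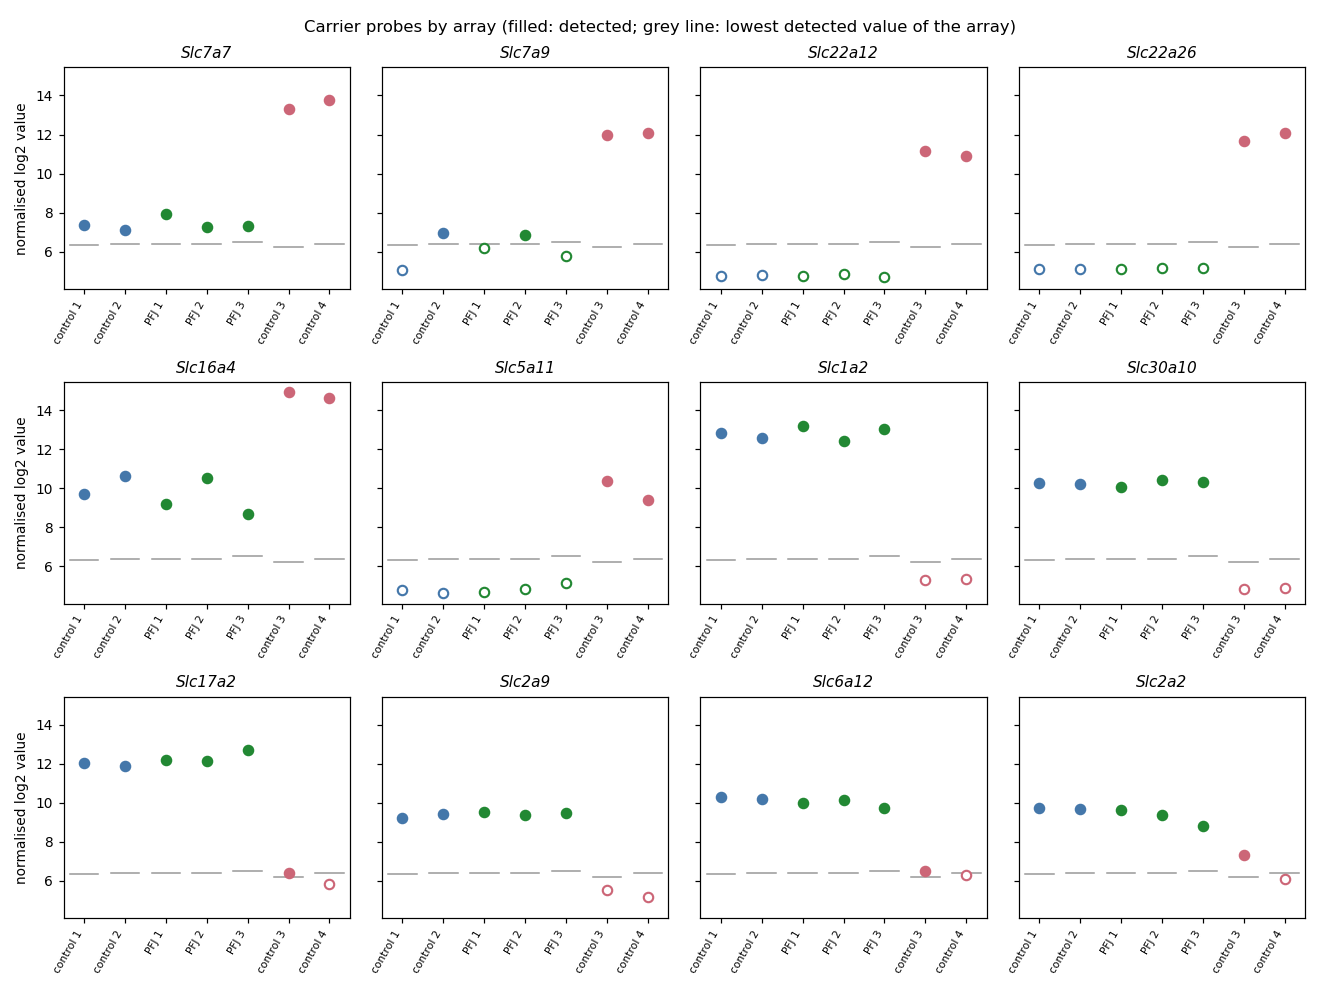
Normalised log2 values (y axis) of 12 carrier probes on each array (x axis; blue, control replicates 1 and 2; green, PFJ; red, control replicates 3 and 4). Filled points were detected, open points were not, and grey lines give the lowest detected value of the array. Both red points lie above all others for *Slc7a7*, *Slc7a9*, *Slc22a12*, *Slc22a26*, *Slc16a4* and *Slc5a11* and below all others for the other 6 genes.

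Carriers of organic anions and cations lay above on control replicates 3 and 4 for 12 of 14 probes, but 8 of the 12 had passed the detection rule through these 2 arrays alone. Of the 5 probes of this group detected on all 7 arrays, 4 lay above, by gaps of only 0.57 to 1.01 log2 units. These were the probe of *Slc22a18*, 1 of *Slco3a1* and both of *Slc22a5*. *Slc22a12* encodes URAT1, the apical urate exchanger of the human proximal tubule, and read 4.78, 4.82, 11.16 and 10.90 in the controls and 4.78, 4.85 and 4.71 with PFJ. *Slc22a26*, a rodent member of the organic anion branch, read 5.09, 5.10, 11.66 and 12.08 in the controls and 5.13 to 5.14 with PFJ. Both were detected on control replicates 3 and 4 alone, at least 20.8-fold and 35.1-fold above the other arrays. *Slc22a2*, which carries organic cations at the basolateral membrane of the tubule, was at 8.25 and 8.02 there, at least 2.82-fold above. *Slc22a5*, the sodium-dependent carnitine carrier, was detected on every array and is described with the diet below. *Slc22a7*, an organic anion carrier of liver and kidney, lay within the range (7.65, 7.71, 7.58 and 7.36 in the controls, and 7.39, 7.61 and 8.30 with PFJ). *Slco2a1*, the prostaglandin carrier, was the only probe of this group that lay below, with 8.69, 8.03, 4.81 and 5.47 in the controls and 8.70, 8.61 and 8.58 with PFJ.

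In the monocarboxylate family, 3 of 4 probes lay above. *Slc16a4*, whose substrate is not settled, read 9.71, 10.64, 14.92 and 14.60 in the controls and 9.21, 10.54 and 8.66 with PFJ, with 15.5-fold between the nearest arrays. *Slc16a9*, a carrier of carnitine and creatine, read 8.72, 8.58, 12.75 and 12.08 in the controls and 8.58, 8.22 and 9.11 with PFJ. *Slc16a11*, linked in people to type 2 diabetes, was detected on control replicates 3 and 4 alone, at 9.23 and 8.69, at least 4.49-fold above the rest.

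All 5 probes of carriers and enzymes of bile acids and fatty acids lay outside the range, 1 above and 4 below. *Slc27a5*, the bile acyl-CoA synthetase of the hepatocyte, read 14.55, 14.41, 13.38 and 13.41 in the controls and 14.31, 14.39 and 14.48 with PFJ. *Slc27a2*, the very long chain acyl-CoA synthetase shared by liver and kidney, read 15.09, 15.44, 14.20 and 13.65 in the controls and 15.07, 15.37 and 14.96 with PFJ. Control replicates 3 and 4 were below the nearest other array by 1.86-fold and 1.70-fold. *Slc51a*, the alpha subunit of the basolateral bile acid exporter, was detected on them alone, at 8.21 and 7.76, at least 2.36-fold above. *Slc10a7*, which belongs to the bile acid family by sequence but is not known to carry them, read 7.55, 7.77, 7.02 and 6.93 in the controls and 7.78, 7.86 and 8.19 with PFJ.

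Carriers of metals gave 13 detected probes of 10 genes, 4 above, 7 below and 2 within. *Slc30a10*, which exports manganese from hepatocytes into bile, read 10.27, 10.22, 4.85 and 4.91 in the controls and 10.08, 10.40 and 10.30 with PFJ, so that control replicates 3 and 4 were at least 13-fold below. *Slc30a1*, the zinc exporter of the plasma membrane, was detected on every array at 10.95, 10.88, 9.49 and 9.49 in the controls and 11.13, 10.70 and 10.98 with PFJ. *Slc39a14*, which brings in zinc, iron and manganese, read 6.55, 7.78, 5.11 and 5.21 in the controls and 6.45, 6.62 and 6.14 with PFJ, values near the limit of detection except on control replicate 2. *Slc39a5*, a zinc importer, had probes detected on control replicates 3 and 4 alone, at 8.45 to 9.26 against at most 5.40, at least 4.74-fold and 3.79-fold above the bound.

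Among the carriers of ions, 4 of 9 probes for protons, sodium, potassium and calcium lay above and 2 below, and all 3 probes for inorganic anions lay above. *Slc4a1*, the chloride and bicarbonate exchanger of erythrocytes and of acid-secreting collecting duct cells, read 5.88, 5.62, 10.47 and 9.50 in the controls and 6.48, 5.79 and 6.68 with PFJ. The erythroid marker *Alas2* ran the other way, at 10.10 and 10.56 on control replicates 3 and 4 and 13.68 to 14.53 elsewhere. *Slc26a6*, an exchanger of oxalate and chloride, was at 9.17 and 8.66 on these arrays, 4.01-fold above, and *Slc4a4*, a sodium bicarbonate cotransporter, at 7.11 and 6.59, at least 1.04-fold above. *Slc12a7*, a potassium chloride cotransporter, and *Slc24a3*, an exchanger of sodium for calcium and potassium, were detected on the same 2 arrays alone, at 6.91 to 7.30, at least 1.31-fold and 1.45-fold above. *Slc9a9*, an endosomal sodium and proton exchanger, lay below (5.38 and 5.18 against 6.47 to 7.04), *Slc9a8* of the Golgi slightly above (7.15 and 7.16 against 6.32 to 6.78), and *Slc9a7* within. *Slc8b1*, a sodium and calcium exchanger of the mitochondrion outside the Slc25 family, was kept by the rule and lay within as well.

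For phosphate, *Slc17a2* read 12.02, 11.87, 6.43 and 5.83 in the controls and 12.21, 12.12 and 12.70 with PFJ, 43.6-fold between the nearest arrays, and *Slc34a3*, a sodium phosphate carrier of the proximal tubule, was detected on control replicates 3 and 4 alone at 6.81 and 6.69. *Slc14a2*, the urea carrier of the renal medulla, likewise appeared there alone, at 6.91 and 7.21. Both of these lay close to the limit of detection, at least 1.12-fold and 1.31-fold above it.

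The 8 detected probes of the Slc35 family, grouped under nucleotide sugars and acetyl-CoA, divided into 1 above, 3 below and 4 within. This group name follows the family and not each member. *Slc35f3* read 7.25, 6.97, 11.33 and 11.13 in the controls and 6.70, 7.22 and 7.22 with PFJ. *Slc35c1*, the GDP-fucose carrier, lay within the range (10.40, 10.49, 10.77 and 10.59 in the controls, and 10.50, 10.45 and 10.81 with PFJ). *Slc35c2* lay below (4.84 and 5.18, both undetected, against 6.84 to 7.98). *Slc35b3*, which carries the sulphate donor PAPS, lay slightly below (7.34 and 7.07 against 7.67 to 8.32), but within the range with equal array medians. Of the remaining members, *Slc15a4*, a lysosomal carrier of histidine and small peptides, read 6.93 and 6.67 on control replicates 3 and 4 and 8.23 to 8.86 elsewhere. *Slc48a1*, which moves heme out of lysosomes, read 10.66 and 10.53 against 9.68 to 10.10. *Slc23a3*, an orphan of the ascorbate family, was detected on these arrays alone at 7.27 and 6.72. The rule also took in genes that are no carriers, of which *Slc9a3r2*, a scaffold of apical carriers, lay within the range (11.69, 11.70, 11.84 and 11.46 in the controls, and 11.99, 11.50 and 11.90 with PFJ). *Slc7a6os*, a gene named for its place on the strand opposite *Slc7a6*, lay below by only 0.03 log2 units.

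**Figure D3:**
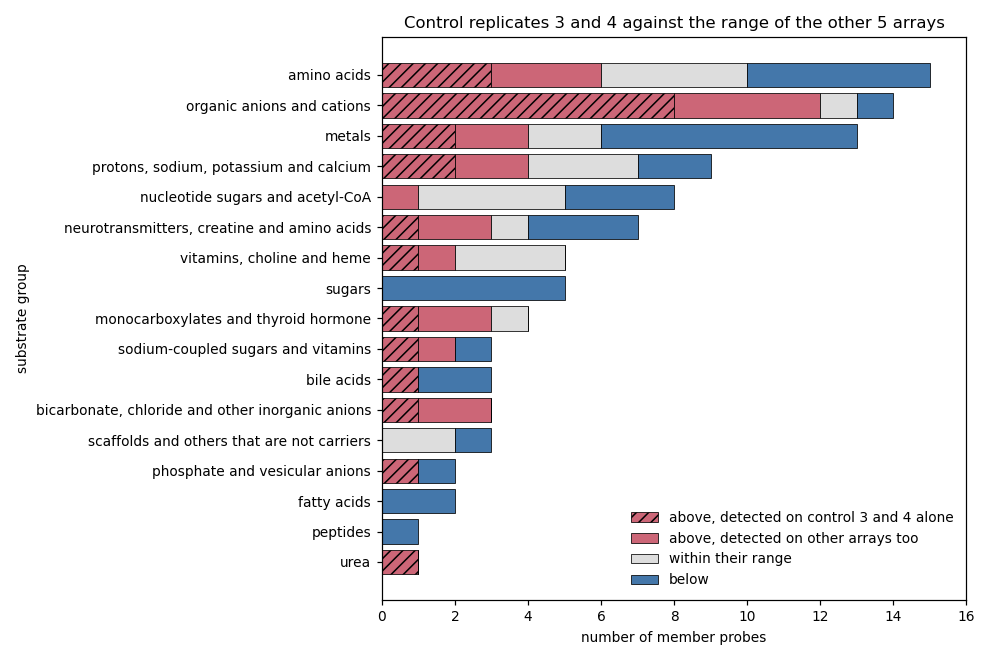
Number of member probes (x axis) in each substrate group (y axis) that lay above (red), within (grey) or below (blue) the range of the other 5 arrays on control replicates 3 and 4. Hatched red marks the 23 probes detected on these 2 arrays alone, 8 of them among the organic anion and cation carriers. The 5 sugar probes all lay below, *Slc45a4* by only 0.16 log2 units.

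Other transport genes were read beside the members. The ABC transporters pump bile salts, phospholipids and conjugates with the energy of ATP. Of 19 listed genes on the array, 4 passed the detection rule, and the others, *Abcb11* among them, did not. All 4 detected probes lay lower on control replicates 3 and 4, beside 28.0% of all probes tested. *Abcb4*, which exports phosphatidylcholine into bile, was at 4.78 and 4.88 on them and at 11.60 to 11.84 elsewhere. Of 4 aquaporin probes, the 2 for *Aqp1* lay above (14.31 and 14.23 against 10.98 to 11.32 for one of them), that for *Aqp8* below (4.89 and 5.13 against 11.50 to 11.61) and that for *Aqp11* within. Of the carrier partners, *Cltrn*, the collectrin that holds neutral amino acid carriers at the brush border, lay at least 22.2-fold above. It had passed the detection rule through control replicates 3 and 4 alone, so that the rule itself fixed its direction. *Sgk1*, a kinase that raises the number of sodium carriers at the membrane, read 15.02 and 14.36 against 11.74 to 12.54. The partners *Ap2m1*, *Bsg*, *Emb*, *Pdzk1* and *Pdzk1ip1* did not pass the detection rule. *Hnf4a*, a transcription factor of hepatocytes and proximal tubule, lay slightly below (6.44 and 6.43 against 6.72 to 7.35), while *G6pc* was near background and had no order between these arrays. Of 28 well-known carriers of liver and kidney, 26 had a probe on the array and 9 were members, while 17 were detected on no array. The latter included the bile acid and organic anion carriers of hepatocytes *Slc10a1*, *Slco1a1*, *Slco1a4* and *Slco1b2* and the glucose carriers *Slc5a1* and *Slc5a2*, on probes of the mouse sequence.

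The diet comparison asked which carriers PFJ up-regulated or down-regulated. With all 7 arrays, 0 of 98 members and 0 of 5763 probes (0.0%) passed an adjusted p under 0.05 from limma, and the lowest adjusted p of a member was 0.54. At an unadjusted p under 0.05, 0 members were up-regulated and 3 were down-regulated, where 2.31% and 2.38% of all probes were. All 3 PFJ arrays lay above all 4 control arrays for 3 members and below them for 6, beside 3.37% and 4.1% of all probes tested. Of the 6, 4 (*Slc34a3*, *Slc22a13*, *Slc7a8* and *Slc12a7*) had passed the detection rule through control replicates 3 and 4 alone, so that their place against control replicates 1 and 2 is an order among undetected values.

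The 3 probes belonged to *Slc39a13* and *Slc22a5*. *Slc39a13*, a zinc carrier of the secretory pathway needed for connective tissue, was detected on all control arrays, at 7.49, 7.33, 8.39 and 8.79, and on 1 PFJ array, with PFJ values of 7.42, 6.09 and 6.30. Its mean was 8.00 ± 0.71 (SD, n = 4) on the control arrays and 6.60 ± 0.72 (SD, n = 3) on the PFJ arrays. The difference was -1.40 on the log2 scale, with a standard error of 0.49 and an adjusted p of 0.54 from limma. The highest PFJ value overlapped control replicates 1 and 2. This gene was selected by the study on these same arrays and is not independent evidence. *Slc22a5* read 12.83, 13.04, 13.73 and 13.61 in the controls and 12.47, 12.66 and 12.58 with PFJ on one probe, where the groups did not overlap, and 9.04, 9.60, 10.72 and 10.61 and then 8.80, 8.39 and 9.07 on the other, where 1 PFJ array overlapped control replicate 1. The log2 fold changes were -0.73 (standard error 0.28) and -1.24 (standard error 0.46), each with an adjusted p of 0.54 from limma. Both genes were highest on control replicates 3 and 4.

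Without these 2 arrays, 5122 probes and 74 members were tested, and 1 probe (0.0195%) but 0 members passed the adjusted threshold of limma. At an unadjusted p under 0.05, 0 members were up-regulated and 1 was down-regulated, where 1.6% and 1.93% of all probes were. The log2 fold change of *Slc39a13* became -0.77 (standard error 0.40), and those of *Slc22a5* became -0.37 (standard error 0.20) and -0.58 (standard error 0.30). The member past the unadjusted threshold was *Slc8a3*, a sodium and calcium exchanger, at -0.69 (standard error 0.27, adjusted p = 1.0 from limma). In the 7-array normalisation it read 6.81, 7.12, 5.25 and 5.12 in the controls and 5.86, 6.58 and 6.27 with PFJ, was not detected on control replicates 3 and 4, and had a log2 fold change of 0.16, so that its direction turned with the choice of arrays. It was detected on 1 of 3 PFJ arrays.

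**Figure D4:**
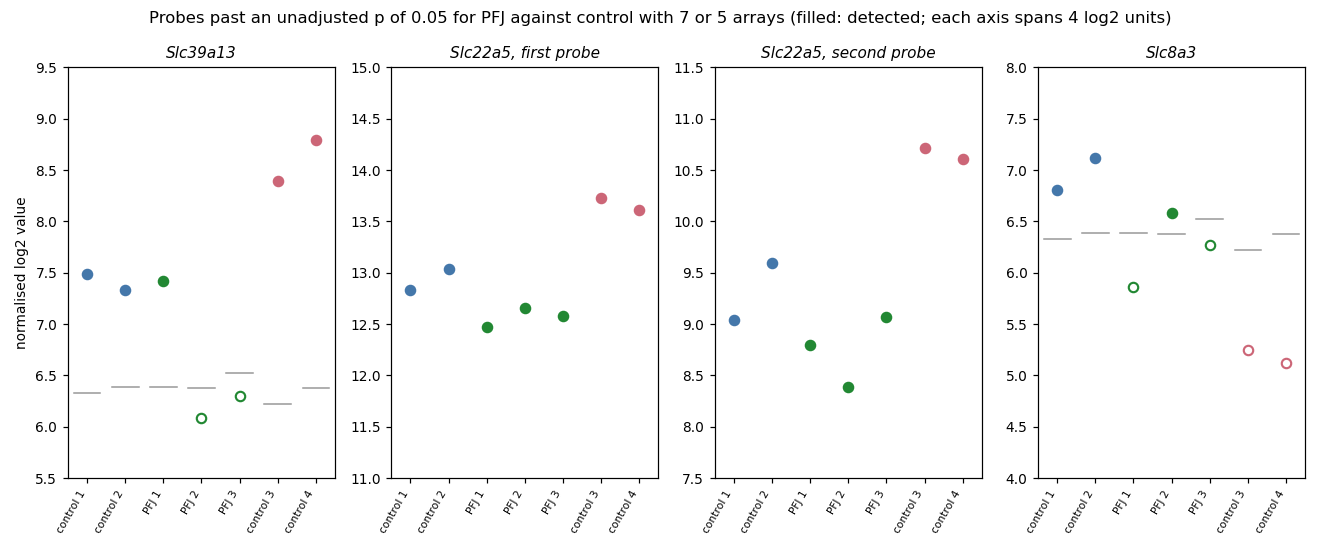
Normalised log2 values (y axis, each spanning 4 units) on the 7 arrays (x axis) of *Slc39a13*, both probes of *Slc22a5* and *Slc8a3* (blue, control replicates 1 and 2; green, PFJ; red, control replicates 3 and 4; filled, detected; grey line, lowest detected value). The red points are highest for the first 3 probes and undetected for *Slc8a3*, and the distance between green and blue is smaller than that between green and red for the probes of *Slc22a5*.

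Between the PFJ arrays and control replicates 1 and 2, all PFJ values lay above for 4 members and below for 6, beside 7.52% and 8.61% of all probes tested. Those above were *Slc17a2*, *Slc10a7*, *Slc9a8* and *Slc11a1*, with log2 fold changes of 0.25 to 0.40, and those below included *Slc2a2* (-0.42, standard error 0.28), *Slc6a12* (-0.31, standard error 0.22) and *Slc22a5*. *Slc10a7* and *Slc11a1*, an iron and manganese carrier of macrophages named here because these arrays did not overlap, each have another probe that did overlap. Of the 10 members, *Slc8a3* alone had an unadjusted p under 0.05.

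The size of the carrier differences depended on the 2 arrays. With all 7, the median absolute log2 fold change was 0.482 over the 38 members detected on every array, beside 0.294 over all 3754 such probes, and 10 of the 38 (26.3%) exceeded 1, beside 9.06% of those probes. The median standard error of the 98 members was then 0.559, beside 0.34 for all probes tested. The 98 include 23 members detected on control replicates 3 and 4 alone, so the sets of members compared here differ. For the 74 members tested without control replicates 3 and 4 the median standard error was 0.265, beside 0.263 for all probes. In the latter fit the median absolute log2 fold change was 0.173 for members and 0.172 for all probes, the values of members ran from -0.77 to 0.64, and none exceeded 1, beside 1.74% of all probes. The 95% interval of the log2 fold change lay wholly within 1 in either direction for 50 of the 74 members. The same share over all probes was not counted, so this count is not a trait of the carriers. For *Slc2a2* it was -1.11 to 0.27 on one probe and -1.04 to 0.51 on the other, for *Slc27a5* -0.56 to 0.39, for *Slc30a10* -0.49 to 0.51 and for *Slc1a2* -0.52 to 0.87 on the first probe described above. The widest was that of *Slc44a2*, a choline carrier (-1.41 to 2.69), whose probe was not detected on control replicate 1 (5.04) and read 8.20 on control replicate 2.

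Another 24 members were detected on no PFJ array and could not be tested without control replicates 3 and 4. For 13 of these the signal with PFJ was lower than the mean of the 4 control arrays by at least 1.11-fold to 4.14-fold, the latter for *Slc22a26*, followed by *Slc7a8* (at least 3.97-fold) and *Slc22a12* (at least 2.80-fold). Of the 13, 12 (all but *Slc26a6*) had passed the detection rule through control replicates 3 and 4 alone, so that the selection itself fixed their direction and their bounds rest on these 2 arrays.

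**Figure D5:**
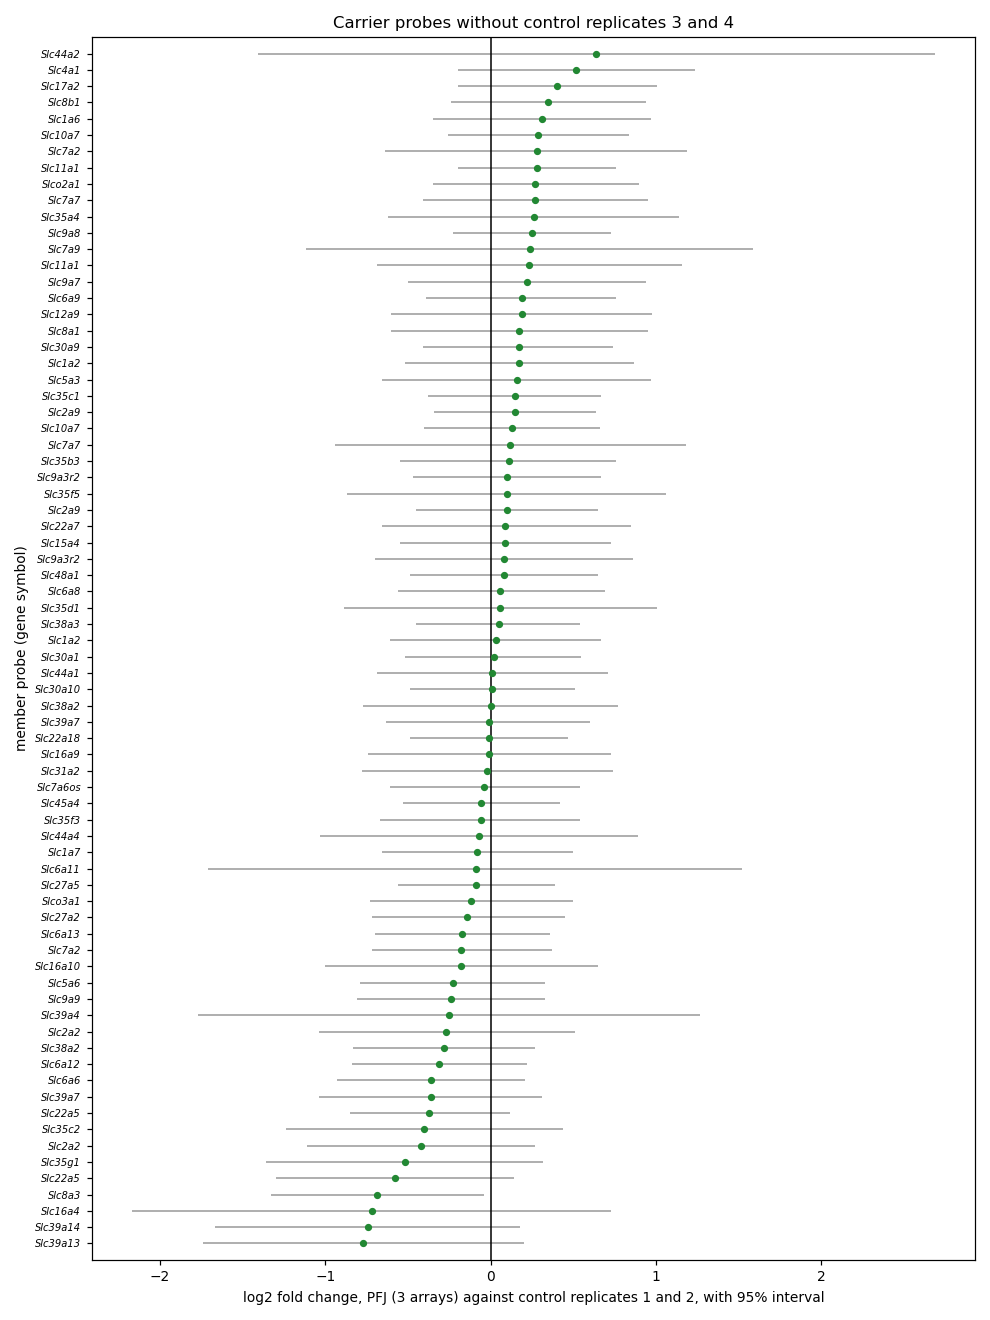
Log2 fold change (x axis) between the 3 PFJ arrays and control replicates 1 and 2 for the 74 carrier probes (y axis) detected on at least 2 of these 5 arrays, with the 95% interval of limma as a grey line. Points run from -0.77 to 0.64, and the interval of 73 probes includes 0, the exception being *Slc8a3*.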

How the data were processed

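RNA of 4 control and 3 PFJ samples, all labelled liver, was measured on the Illumina MouseRef-8 array. The deposited table held, per probe and array, the mean bead intensity as exported by the authors with GenomeStudio (version 2011.1 per the labels), not normalised. The deposited detection p-value of each probe compares it with the negative controls of its array. A second deposited table of intensity values, rank invariant normalised per the methods of the authors and background subtracted as far as the values show (array medians 6.165 to 8.972), served as an alternative. The methods state that RNA was chosen for its integrity, that 8 samples were hybridised and that outlier samples were removed, while 7 arrays were analysed here.

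The neqc function of limma 3.58.1 (R 4.3.3, offset 16) corrected the background and applied quantile normalisation. Probes with a detection p under 0.01 on at least 2 arrays were tested with lmFit and eBayes and Benjamini-Hochberg adjustment over all 5763. Without control replicates 3 and 4, normalisation, filter and fit were run again on 5 arrays. Depth has no counterpart on arrays, and between 4689 and 5137 probes per array were detected. The fit was tested on simulated data. No test was made between control replicates 3 and 4 and the other arrays, and "above" or "below" means that both lie outside the range of the other 5. A fold given as "at least" raises each undetected value on the lower side of the comparison to the lowest detected value of its array. Values on the higher side enter as read, also undetected ones in the mean of the 4 control arrays behind the PFJ bounds.

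Symbols came from the platform annotation (23141 probes with 1 symbol, 2556 not listed), and 73 of the 81 member symbols were found in the NR annotation of RefSeq. Substrate groups followed the SLC families. Named members were those with an unadjusted p under 0.05, up to 3 per substrate group with the largest gap in each direction, the member per group whose lowest value was highest, well-known carriers of liver and kidney, and *Slc39a13*; other named members were picked after their values were seen. The members and lists were chosen with earlier results of these data known. Same-numbered control and PFJ arrays deviated together with correlations of 0.066, 0.197 and 0.112, and the other pairs ran from -0.167 to 0.140. Each same-numbered value was the highest of its control replicate. Such small values do not exclude a pairing by number. The labels state no pairing, and the main fit used none. Alternatives were equal array medians, the deposited normalised values (floor 10), offset 50, other detection filters, the replicate number as a block and leaving out arrays.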

Additional observations from a re-analysis of the deposited data

Results flagged for a closer look

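Of the 98 member probes, 1 was flagged for a control array whose value stood apart from the other 3, on a probe near background. The flag does not take in every lone array. The unflagged *Slc44a2* probe read 5.04 on control replicate 1, where it was not detected, and 7.56 to 8.20 on the other controls. The second probe of *Slc38a2*, a carrier of small neutral amino acids, read 5.49 on control replicate 3, while the remaining controls read 6.31 to 6.41. Of the controls it was detected on replicate 1 alone, so the size of this distance is not measured. The first probe of the gene read 10.59 to 10.79 on all 4. Chance flags about 1 in 20 groups.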

How the results depend on the processing

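No member passed an adjusted p under 0.05 from limma in any setting. The count at an unadjusted p under 0.05 was 3 with all arrays (4.69% of all probes tested), 5 with the deposited normalised values (5.15%), 6 with no filter on dim probes (5.05%), 1 with the replicate block (1.53%) and 1 without control replicates 3 and 4 (3.53%). Leaving out 1 array gave 0 to 28 members, with 28 without control replicate 1 (8 higher and 20 lower, where 16.2% of all probes were called) and 28 without control replicate 2 (10 higher and 18 lower, 13.8%), 0 without control replicate 3, and 1 without control replicate 4 and without each PFJ replicate (1.86% to 3.41% of all probes over these settings). The count of members outside the range of the other arrays fell from 77 to 28 when detection on all 7 arrays was asked for, as fewer probes were then tested. Those above fell from 43 to 20 (at least 3 arrays) and 15 (all 7), and those below from 34 to 13. No member turned from above to below in any setting. With equal array medians the median log2 fold change of all probes was -0.214, and 88 of 98 members kept their place. Those that did not were probes of *Slc11a1*, *Slc30a9*, *Slc35b3*, *Slc35c1*, *Slc35g1*, *Slc38a2*, *Slc45a4*, *Slc5a6*, *Slc7a6os* and *Slc9a3r2*. Without control replicates 3 and 4, the count of 1 member became 2 with equal medians and 0 with offset 50, both alternatives being chosen after the data were seen. *Slc8a3* turned from a log2 fold change of 0.16 to -0.16 with the replicate block, to -0.69 without control replicates 3 and 4, and ranged from -0.16 to 0.52 over single arrays left out (-0.12 without control replicate 3, -0.16 without control replicate 4 and -0.01 without PFJ replicate 2). The cause was not tested. Signals near background limit the 60 members not detected on all 7 arrays.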
